A study of Mus musculus with 3 samples.

Results

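The genes described here are those of fatty acid, sterol and glycerolipid metabolism and of the peroxisome on a mouse array, as far as their symbols follow the standard names of these enzyme families (Acad, Hadh, Cpt, Acot, Acsl, Pex, Fabp, Elovl, Fads, Scd, Dgat, Lpin and similar stems, and named sterol enzymes such as Fdft1, Ebp and Mvk). Every probe whose annotation gave 1 symbol that met this rule was taken, which yielded 73 probes for 45 genes, out of 12336 probes with 1 symbol for 7984 genes. The rule itself uses symbols and no measured values, though it was written with earlier results of these data known. Of the 45 genes, 31 had at least 1 probe with a ratio on all 3 arrays (68.9%, against 69.1% of the 7984 genes), 4 had a ratio on 2 arrays at most, 6 on 1 array and 4 on none. An exact 0 in the deposited table was read as no ratio.

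The samples were 3 arrays of 2 colours, each of which set purchased mouse liver total RNA (Cy5) against Universal Mouse Reference RNA (UMRR, Cy3), sold as a mixture of RNAs of many mouse cell lines. The strain, sex and age of the liver donors, and whether their livers were pooled, are not given in the labels. Each RNA bears 1 catalogue number throughout, so p-values reflect how far the arrays differed, perhaps for technical reasons, and say nothing of differences between livers. Both RNAs are mixtures of cells, so fewer cells of a type and less RNA per cell cannot be told apart.

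All values are log2 ratios of liver over UMRR. The log base is not stated in the sources used here, and base 2 was assumed. The direction of the ratio is not stated either: positive was read as higher in liver, because the 4 measured hepatocyte secretory genes (Apoc3, Vtn, Rbp4 and Ambp) had means of 4.01 to 5.17. Dyes were never swapped, so dye bias is part of each ratio. Array 1 stood apart: over the 31 genes, the SD of the difference was 0.41 between arrays 1 and 2 and 0.34 between arrays 1 and 3, against 0.22 between arrays 2 and 3. Over all 5520 genes fitted, these SDs were 0.43, 0.38 and 0.21. In other cell marker lists, 7 of 8 measured pancreatic acinar genes were higher in liver, with a median of 4.14. Of 5 measured heart and skeletal muscle markers, 3 were higher (Tnnt2 at 2.54, Ckm at 0.91 and Tnni3 at 0.53), Actc1 was lower at -1.42 and Tnnc1 did not pass (0.26). Of 3 measured fibroblast markers, Lum was higher at 2.08, and Vim and Col3a1 were lower at -1.92 and -1.70. Of 2 measured intestinal markers, Tff3 was higher at 1.01 and Krt20 lower at -1.66. The part of these cell types in the results below was not tested.

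Liver cells take up fatty acids, activate them to acyl-CoA esters and either burn them or store them as triglyceride. Mitochondria shorten common fatty acids by beta-oxidation and turn the acetyl-CoA into ketone bodies for other tissues, whereas peroxisomes shorten very long and branched chains. The liver also makes cholesterol from acetyl-CoA, and elongates and desaturates fatty acids before they enter membranes and lipoproteins.

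Most of the measured genes were higher in liver than in UMRR. In the limma fit over all 5520 genes with Benjamini-Hochberg adjustment, at a threshold of 0.05, 29 of the 31 passed, as did 64.0% of all genes. Higher were 26 of the 31 (30.1% of all genes were), lower were 3 (33.9% of all genes were), and the 2 others did not pass. The median log2 ratio was 1.28 over the 31 genes and -0.028 over all genes. At least 2-fold higher on every array stood 16 of the 31, against 9.46% of all genes, and 2 were at least 2-fold lower on every array, against 9.53%. When an exact 0 was instead counted as a ratio of 1, all 45 genes entered: 19 were higher, 2 were lower and the median was 0.66; 14.6% of all genes were then higher and 15.4% lower.

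**Figure D1:**
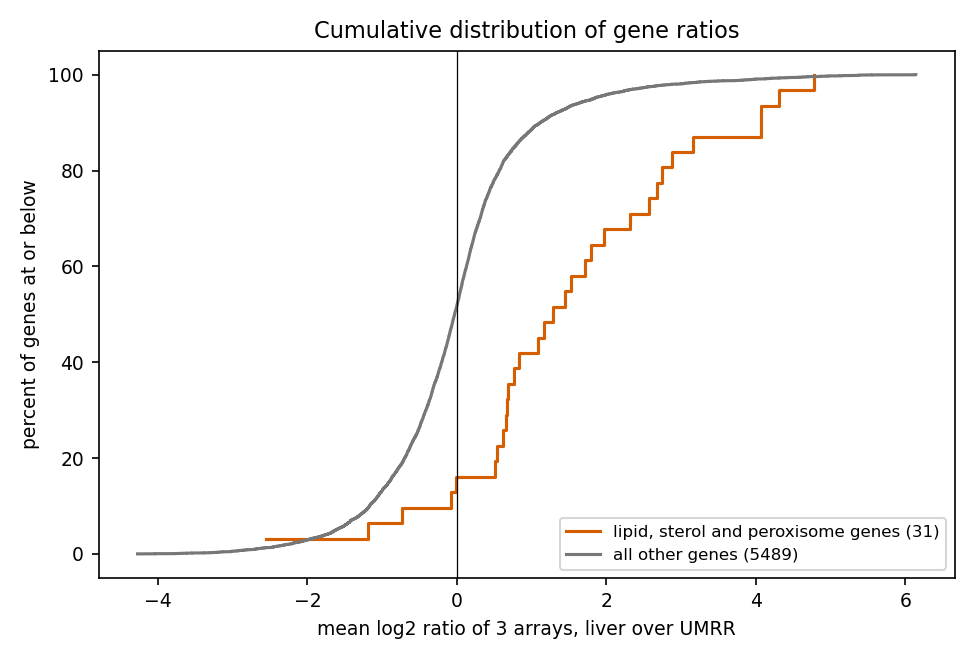
Cumulative share of genes (percent, vertical axis) by mean log2 ratio of liver over UMRR (horizontal axis), for the 31 measured lipid, sterol and peroxisome genes and the 5489 other genes. The curve of the 31 genes lies to the right of the other through most of the range, with medians of 1.28 and -0.032, and reaches -2.56 at its low end.

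The highest ratios belonged to 4 genes that averaged at least 16-fold (0.978% of all genes did). Elovl2, which elongates polyunsaturated fatty acids, stood at 4.78 ± 0.41 (SD, n = 3 arrays). Next came Bdh1, the mitochondrial enzyme that makes hydroxybutyrate from acetoacetate, at 4.31 ± 0.13. Dgat2, which adds the last acyl chain of triglyceride, stood at 4.08 ± 0.33. Decr1, a mitochondrial reductase needed to oxidise unsaturated fatty acids, stood at 4.07 ± 0.14. These 4 genes thus belong to different branches: elongation, ketone bodies, storage and oxidation. At the low end were Acot9, Fabp5 and Scd3, which are described with their families below.

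**Figure D2:**
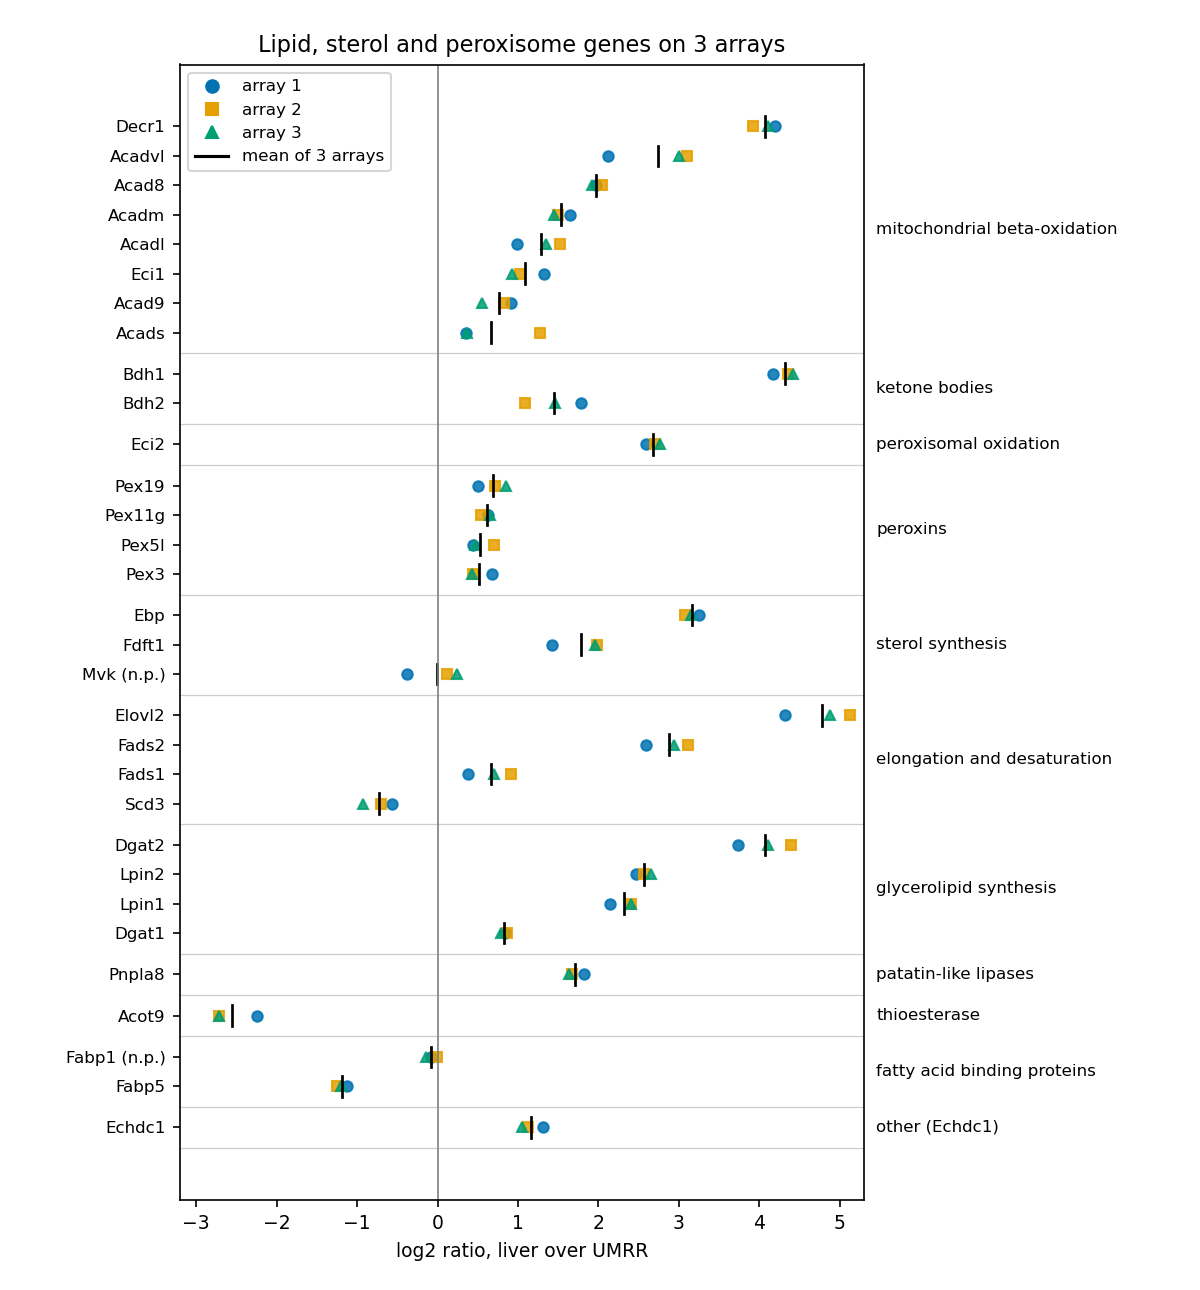
Log2 ratio of liver over UMRR (horizontal axis) of the 31 measured genes on each of 3 arrays, grouped by role (right margin); points are arrays, black ticks are means, and n.p. marks the 2 genes that did not pass the limma test. All genes of the beta-oxidation group, with Acad8 and Acad9 among them, lie right of 0 on every array. Genes of the peroxin group, with Pex5l among them, lie close together between 0.51 and 0.69 on average. Acot9, Fabp5 and Scd3 lie left of 0 on every array.

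The upstream sequences of genes at both ends are shown because these ratios span the range of the set. RefSeq windows (build GRCm38.p6) were matched by gene identifier for 33 of the 45 genes, and the 250 bases before an annotated start were read. Where several windows were listed for a gene, as for Elovl2 and Bdh1 (2 each), the first was taken and the others were not read. Shown are the 3 highest and 3 lowest measured genes among those matched, 5′ to 3′ on the strand of the gene. Dgat2, Decr1 and Fabp5 had no matched window. Fabp1 is therefore among those shown, though its mean was -0.078 and it did not pass the test. Capitals mark matches on either strand to the TATA box (searched as TATAAA), the CCAAT box, the GC box (searched as GGGCGG), the E-box (searched as CACGTG) and the core element of nuclear receptors (searched as AGGTCA). No motif of this set contains another.
Elovl2, chr13:41220404-41220653, minus strand: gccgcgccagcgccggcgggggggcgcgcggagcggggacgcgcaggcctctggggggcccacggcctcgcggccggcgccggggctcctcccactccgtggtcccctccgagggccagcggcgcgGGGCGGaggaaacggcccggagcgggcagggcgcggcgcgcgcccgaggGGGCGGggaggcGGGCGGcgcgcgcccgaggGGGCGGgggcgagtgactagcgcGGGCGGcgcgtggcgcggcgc
Bdh1, chr16:31422047-31422296, plus strand: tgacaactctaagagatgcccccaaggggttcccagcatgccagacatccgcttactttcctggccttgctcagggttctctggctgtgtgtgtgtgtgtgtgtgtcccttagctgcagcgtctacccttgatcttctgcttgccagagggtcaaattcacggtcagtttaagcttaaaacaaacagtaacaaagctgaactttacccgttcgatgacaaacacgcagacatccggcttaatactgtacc
Ebp, chrX:8193513-8193762, minus strand: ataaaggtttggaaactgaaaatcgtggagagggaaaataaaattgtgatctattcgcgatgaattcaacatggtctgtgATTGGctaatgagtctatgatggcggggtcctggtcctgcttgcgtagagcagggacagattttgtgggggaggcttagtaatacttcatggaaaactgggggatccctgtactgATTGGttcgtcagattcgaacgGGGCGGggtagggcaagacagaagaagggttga
Fabp1, chr6:71199629-71199878, plus strand: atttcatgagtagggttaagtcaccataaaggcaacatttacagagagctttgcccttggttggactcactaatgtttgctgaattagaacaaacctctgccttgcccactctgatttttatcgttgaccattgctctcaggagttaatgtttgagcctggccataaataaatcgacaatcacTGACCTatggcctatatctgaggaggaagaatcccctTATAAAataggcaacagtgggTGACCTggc
Scd3, chr19:44203038-44203287, plus strand: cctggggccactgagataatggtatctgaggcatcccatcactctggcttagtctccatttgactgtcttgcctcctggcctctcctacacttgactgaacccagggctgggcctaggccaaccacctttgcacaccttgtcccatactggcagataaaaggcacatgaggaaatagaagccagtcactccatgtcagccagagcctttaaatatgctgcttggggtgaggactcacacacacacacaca
Acot9, chrX:155262193-155262442, plus strand: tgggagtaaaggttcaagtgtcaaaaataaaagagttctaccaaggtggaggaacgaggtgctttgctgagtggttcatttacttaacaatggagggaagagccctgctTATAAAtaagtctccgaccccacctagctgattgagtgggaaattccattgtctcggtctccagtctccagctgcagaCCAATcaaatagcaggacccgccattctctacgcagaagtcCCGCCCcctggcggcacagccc

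The windows at the high end had little in common in these letters. The Elovl2 window was 87.2% G and C and held 5 GC boxes, whereas the Bdh1 window held no match. Ebp had 2 CCAAT boxes, read on the other strand, and 1 GC box. At the low end, Acot9 had a TATA box, a CCAAT box and a GC box, and Scd3 had no match. Fabp1, which was close to a ratio of 1, had a TATA box between 2 AGGTCA elements on the other strand. Over the 33 windows, GGGCGG was found in 19 (57.6%) and in 32.9% of the 27025 windows of all genes in the RefSeq table, coding or not. CCAAT was found in 15 (45.5%, against 34.5% of all windows), AGGTCA in 5 (15.2%, against 13.8%), TATAAA in 3 (9.09%, against 13.0%) and CACGTG in 1 (3.03%, against 6.05%). These are descriptions of letters in a window and were not tested.

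Genes grouped by symbol under mitochondrial beta-oxidation were all higher in liver where measured. In that direction 8 of 8 passed, against 30.1% of all genes, with a median log2 ratio of 1.41. The group takes every Acad symbol, so the count and the median include Acad8 and Acad9, whose other roles are given below. Decr1 gave 4.20, 3.92 and 4.10 on arrays 1, 2 and 3, or 16.8-fold on average (adjusted p = 2.18e-06). Acadvl, the dehydrogenase that opens the oxidation of long chains at the inner membrane, gave 2.12, 3.10 and 3.00, or 6.69-fold (adjusted p = 6.67e-05). Array 1 was the low one for Acadvl and the high one for Decr1. A further probe of Acadvl had an exact 0 on array 1 and lower ratios of 1.16 and 1.05 on arrays 2 and 3. Leaving out array 1 let this probe in and gave a mean of 2.08 (adjusted p = 4.59e-06). With each exact 0 taken as a ratio of 1 the mean was 1.74 and Acadvl did not pass (adjusted p = 0.0539, with 4.59e-06 to 0.0539 over the alternatives run).

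The dehydrogenases for medium and long chains had smaller ratios. Acad8, which acts in valine breakdown rather than on fatty acids, stood at 1.97 ± 0.063 (SD, n = 3). Acadm, the medium-chain enzyme, stood at 1.53 ± 0.11, and Acadl, the long-chain enzyme, at 1.28 ± 0.27. Eci1, an isomerase that moves double bonds of unsaturated chains, stood at 1.09 ± 0.21. In the fit, the 4 genes had adjusted p-values of 1.16e-05 to 0.000284. All 4 were positive on every array, and the weakest value among them was 0.93, for Eci1 on array 3.

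The lowest members of the family were Acad9 and Acads. Acad9, known for its part in assembling respiratory complex I, gave 0.91, 0.82 and 0.56 on arrays 1, 2 and 3 (mean 0.76, adjusted p = 0.00117). Acads, the short-chain dehydrogenase, gave 0.35, 1.27 and 0.36 (mean 0.66, adjusted p = 0.0248). Array 2 stood apart for Acads, and without it the mean was 0.36 and the gene did not pass (adjusted p = 0.0847, with 0.0119 to 1 over the alternatives run). Acaa2, the thiolase of the last step, had a ratio on array 2 alone, at 1.13.

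Ketone body enzymes followed the oxidation genes. Bdh1 gave 4.17, 4.35 and 4.42 on arrays 1, 2 and 3, or 19.9-fold higher in liver (adjusted p = 2.16e-06), with little difference between arrays. Bdh2, a cytosolic relative, gave 1.79, 1.09 and 1.45, or 2.72-fold (adjusted p = 0.000256), and its arrays differed more. Outside the gene families chosen here, Oxct1, which other tissues need to use ketone bodies and which hepatocytes are known to lack, gave -2.67, -2.15 and -2.53 (adjusted p = 1.73e-05). The enzyme that makes hydroxybutyrate was thus higher in liver than in UMRR and the enzyme that spends ketone bodies was lower, on every array.

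Eci2 and the measured peroxins were higher in liver, with a larger ratio for Eci2 than for any peroxin. Eci2, an isomerase found in peroxisomes and mitochondria, gave 2.59, 2.70 and 2.76 on arrays 1, 2 and 3, or 6.42-fold higher in liver (adjusted p = 5.08e-06). Peroxins build the organelle: Pex3 and Pex19 insert its membrane proteins and the Pex11 proteins divide it. All 4 measured genes with a Pex symbol were higher in liver (30.1% of all genes were), with a median of 0.57. The 4 include Pex5l, a relative of the import receptor Pex5 that is known from brain. None was 2-fold apart on every array. With each exact 0 taken as a ratio of 1, Pex3 (mean 0.30, adjusted p = 0.246) and Pex19 (mean 0.79, adjusted p = 0.137) did not pass; over all alternatives their adjusted p reached 1, in the test against a 2-fold difference.

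The peroxin ratios lay within a narrow band. Pex19, the carrier of membrane proteins, gave 0.50, 0.71 and 0.85 on arrays 1, 2 and 3, or 1.61-fold higher in liver (adjusted p = 0.00172). Pex11g gave 0.63, 0.55 and 0.65, or 1.53-fold (adjusted p = 0.00147). Pex3, the docking partner of Pex19, gave 0.67, 0.44 and 0.42, or 1.43-fold (adjusted p = 0.0049). Leaving out array 1 let in a further Pex19 probe (1.47 and 1.22 on arrays 2 and 3) and raised the Pex19 mean to 1.06. The means of these 3 genes differed by less than the range of Pex19 between arrays. Of the 5 Pex3 probes, 4 had a ratio on all arrays, with means of 0.28 to 0.66, and the fifth had a ratio of -1.64 on array 2 alone.

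Pex5l, a relative of the import receptor Pex5 that is known from brain, gave 0.44, 0.70 and 0.46 (mean 0.53, adjusted p = 0.0043). Of the brain and glia list, 2 of 9 genes were measured and both were higher in liver, Mbp at 0.36 ± 0.092 and Syt1 at 0.28 ± 0.013 (SD, n = 3). Their part in the Pex5l value was not tested. Pex13, a part of the import pore, had a ratio on array 2 alone, at 1.19. Pex7 and Pex16 were at exact 0 on every array.

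Other genes of these pathways were taken from a list of carnitine, beta-oxidation and peroxisomal genes outside the chosen families. Of 43 listed, 21 were on the array and 13 were measured on all arrays: 10 were higher in liver (30.1% of all genes were) and 2 lower (33.9% of all genes were), 1 did not pass, and the median was 1.78. The highest were Nudt7, a peroxisomal hydrolase of CoA esters, at 4.59 ± 0.17 (SD, n = 3), and Pecr, a peroxisomal reductase of enoyl-CoA, at 3.86 ± 0.072. The lowest were Oxct1 at -2.45 ± 0.27 and Scp2, which encodes a peroxisomal thiolase and a sterol carrier, at -1.23 ± 0.21. The value of Scp2 depended on the probe: 4 probes annotated to the same clone averaged -1.51 to -0.97, while another probe, with no ratio on array 3, gave 3.77 and 3.88 on arrays 1 and 2.

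**Figure D3:**
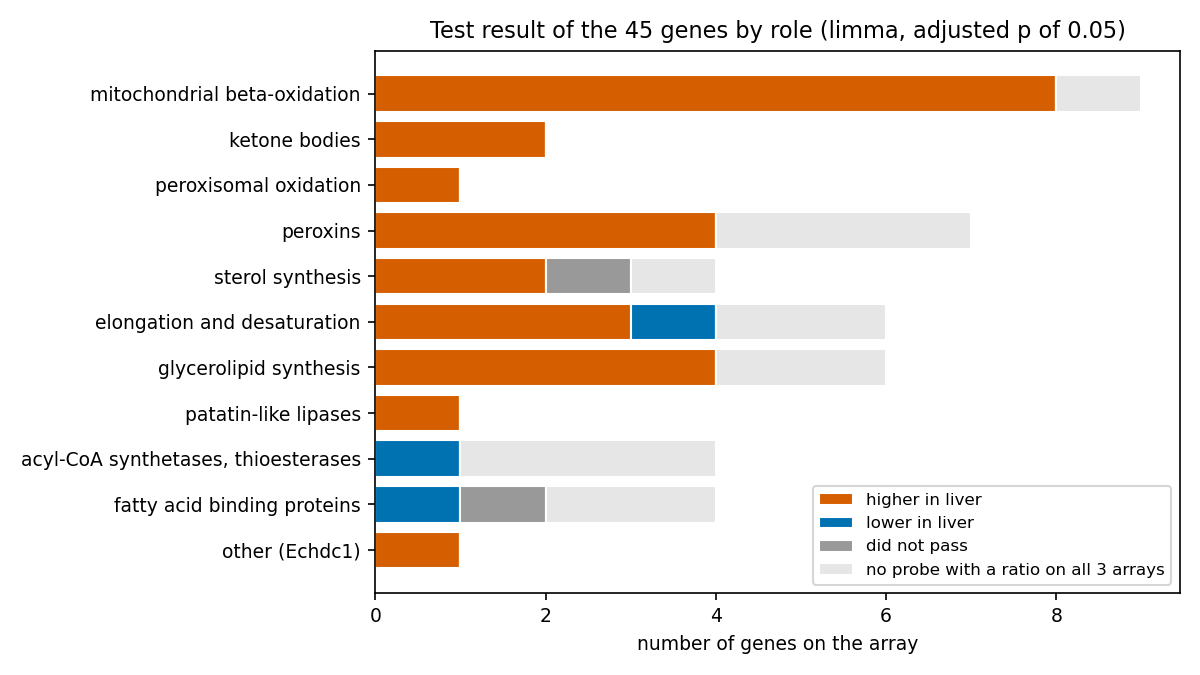
Number of genes on the array (horizontal axis) by role, split by limma result into higher in liver, lower in liver, did not pass, and no probe with a ratio on all 3 arrays. All 8 measured genes of the mitochondrial beta-oxidation group, which includes Acad8 and Acad9, are higher. So are all 4 measured genes of the peroxin group, which includes Pex5l, while the 1 measured thioesterase (Acot9) is lower.

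Of the 3 measured genes of sterol synthesis, 2 were higher in liver (30.1% of all genes were) and 1 did not pass (median 1.79). Ebp, the isomerase that shifts the double bond of the sterol nucleus, gave 3.24, 3.08 and 3.15 on arrays 1, 2 and 3, or 8.93-fold (adjusted p = 3.43e-06). Fdft1, squalene synthase, the first enzyme committed to sterols, gave 1.43, 1.98 and 1.96, or 3.46-fold (adjusted p = 8.05e-05). Array 1 was the low one for Fdft1, which was read by 1 probe. Ebp was read by 2 probes with means of 3.10 and 3.22, and the arrays stayed close in their average only. Probe 3942 gave 3.52, 2.97 and 3.16 on arrays 1, 2 and 3, and probe 8945 gave 2.97, 3.19 and 3.15.

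Mvk, the mevalonate kinase of the early pathway, gave -0.38 on array 1 and 0.12 and 0.24 on arrays 2 and 3. Its mean was -0.0062 ± 0.33 (SD, n = 3, adjusted p = 0.972), and it was the single measured gene of the set whose sign differed between arrays. Without array 1 its mean was 0.18 (adjusted p = 0.0982), and it passed under none of the 13 alternatives run. Lss, lanosterol synthase, was at exact 0 on every array.

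In a list of 24 sterol genes outside the chosen families, 7 were measured: 5 were higher in liver and 1 lower (30.1% and 33.9% of all genes were), 1 did not pass, and the median was 1.05. Insig2, which holds back the SREBP factors that drive sterol synthesis, stood at 2.12 ± 0.34 (SD, n = 3) and Abca1, a cholesterol exporter, at 2.05 ± 0.18. The lowest called genes were Npc2, a lysosomal sterol carrier, at -0.67 ± 0.10 and Cyp51, the demethylase of lanosterol, at 0.62 ± 0.53. Cyp51 was near 0 on array 1 (0.0073) and higher on arrays 2 and 3 (0.87 and 0.97).

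Genes of fatty acid elongation and desaturation covered the widest range of the families with several measured genes. Of 4 measured, 3 were higher in liver and 1 lower (30.1% and 33.9% of all genes were). Elovl2 gave 4.32, 5.13 and 4.88 on arrays 1, 2 and 3, or 27.4-fold (adjusted p = 4.76e-06). Fads2, the desaturase that opens the pathway to long polyunsaturated chains, gave 2.59, 3.11 and 2.94, or 7.34-fold (adjusted p = 9.25e-06). Its partner Fads1 gave 0.38, 0.91 and 0.70, or 1.59-fold (adjusted p = 0.00412). The lowest Fads2 array thus lay above the highest Fads1 array, on the scale of ratios and not of levels, and all 3 genes were lowest on array 1.

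The stearoyl-CoA desaturases split. Scd3, an isoform known from skin, gave -0.57, -0.70 and -0.93 on arrays 1, 2 and 3, or 1.66-fold lower in liver (adjusted p = 0.00137). Scd1, the main form of liver and fat, gave 2.91 and 3.66 on arrays 1 and 2 and an exact 0 on array 3, so it was left out of the fit over genes measured on all arrays. When ratios on 2 arrays were enough, it was higher in liver, with a mean of 3.29 (adjusted p = 0.000285). The sequences of these paralogs are similar, and a probe of one may take up RNA of the other, so both values are uncertain. Of the skin keratinocyte list, 4 of 7 genes were measured, and Krt1, Krt14 and Krt5 were lower in liver, at -0.35 to -0.41, while Krt10 did not pass (0.16, adjusted p = 0.339). Their part in the Scd3 value was not tested. Elovl1 had a ratio on array 2 alone, at 0.14.

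Genes that build triglyceride were higher in liver where a ratio stood on all arrays, with 4 of 4 past the test (30.1% of all genes were higher) and a median of 2.44. Agpat4, an acyltransferase of the same group with ratios on 2 arrays, was negative on both. Dgat2 gave 3.73, 4.39 and 4.11 on arrays 1, 2 and 3, or 16.9-fold (adjusted p = 4.76e-06). Dgat1, an unrelated protein that catalyses the same step, gave 0.84, 0.86 and 0.79, or 1.78-fold (adjusted p = 0.000355). Each Dgat2 array thus lay above each Dgat1 array, again as ratios and not as levels. The arrays differed little for Dgat1 (SD 0.037) and more for Dgat2 (SD 0.33).

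Lipins remove the phosphate of phosphatidic acid on the way to triglyceride, and they also act in the nucleus on genes of fat oxidation. Lpin2 gave 2.47, 2.56 and 2.66 on arrays 1, 2 and 3, or 5.92-fold higher in liver (adjusted p = 5.57e-06). Lpin1 gave 2.14, 2.40 and 2.40, or 4.97-fold (adjusted p = 9.66e-06). Both gene averages had low spread between arrays (SD 0.094 for Lpin2 and 0.15 for Lpin1), but Lpin1 depended on the probe, as given below. Its single probes had SDs between arrays of 0.15 to 0.34. Agpat3 had a ratio on array 1 alone (1.19), and Agpat4 gave -0.52 and -1.07 on arrays 1 and 2 and an exact 0 on array 3. When ratios on 2 arrays were enough to enter the limma fit, Agpat4 was lower in liver (mean -0.80, adjusted p = 0.0159).

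Of a list of 30 genes of lipogenesis and storage outside the chosen families, 7 were measured: 5 were higher in liver and 1 lower (again beside 30.1% and 33.9% of all genes), 1 did not pass, and the median was that of Mgll, the monoglyceride lipase, at 1.00. Plin5, a lipid droplet protein of oxidative tissues, stood at 3.95 ± 0.24 (SD, n = 3) and Slc25a1, the citrate carrier that feeds lipid synthesis, at 2.24 ± 0.12. The lowest called genes were Lipe, the hormone-sensitive lipase, at -0.73 ± 0.36 and Oxsm, of mitochondrial fatty acid synthesis, at 0.90 ± 0.15. Lipe is also 1 of the 2 measured of 12 adipocyte markers, and the other, Car3, stood at 1.54 ± 0.092. Of 11 listed regulators of lipid metabolism 2 were measured and both were higher: Angptl4, an inhibitor of lipoprotein lipase, at 3.33 ± 0.25 and Fgf21, a hormone of the fasted liver, at 1.84 ± 0.35.

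Pnpla8, a phospholipase of mitochondria and peroxisomes, was the 1 patatin-like lipase among the genes, and its arrays gave 1.83, 1.67 and 1.63, or 3.27-fold higher in liver (adjusted p = 2.34e-05). Echdc1, which removes a faulty product of fatty acid synthesis, gave 1.31, 1.13 and 1.05, or 2.24-fold (adjusted p = 0.000126). Each was read by 2 probes, and in both genes every probe was positive on every array.

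Acot9, a mitochondrial thioesterase that splits acyl-CoA esters, had the lowest ratio of the set. It gave -2.24, -2.71 and -2.72 on arrays 1, 2 and 3, or 5.89-fold lower in liver (adjusted p = 1.54e-05). A further Acot9 probe had a ratio on array 2 alone, at -1.84. Where an exact 0 counted as a ratio of 1, Acot9 had a mean of -1.59 and did not pass (adjusted p = 0.0669, with 3.39e-07 to 0.0669 over the alternatives run). The other thioesterase, Acot7, had a ratio on array 2 alone, at -0.26. Acyl-CoA synthetases activate fatty acids, and neither of those present was measured on all arrays: Acsl5 gave 1.64 and 1.54 on arrays 1 and 2 (adjusted p = 0.000485 when 2 arrays were enough), and Acsl3 gave -0.19 on array 2.

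Fatty acid binding proteins carry fatty acids through the cytosol. Only 2 were measured on all arrays: none was higher in liver and 1 was lower (30.1% and 33.9% of all genes were). Fabp5, the epidermal form, gave -1.13, -1.24 and -1.20 on arrays 1, 2 and 3, or 2.29-fold lower in liver (adjusted p = 8.04e-05). Its 2 full probes averaged -1.28 and -1.10, and the third had a ratio on array 1 alone, at -0.29. Keratinocytes and macrophages are known to use Fabp5, and the keratinocyte genes are given with Scd3. Of 14 listed macrophage markers only Slc40a1 was measured, and 1 gene cannot stand for a cell type. It was higher in liver, at 4.13, 3.91 and 3.95 on arrays 1, 2 and 3. The part of these cells in the Fabp5 value was not tested.

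Fabp1, the liver form, which is an abundant protein of hepatocytes, was close to a ratio of 1. It was read by 1 probe (number 9582), which gave -0.086, -0.00063 and -0.15 on arrays 1, 2 and 3, with a mean of -0.078 ± 0.074 (SD, n = 3, adjusted p = 0.49). It passed under none of the 13 alternatives run, over which its mean lay between -0.12 and -0.043. The hepatocyte secretory genes, at 4.01 to 5.17, and Bdh1 and Dgat2 were measured in the same RNA. Whether probe 9582 reads Fabp1 RNA was not tested. Fabp2, the intestinal form, was at exact 0 on every array for both of its probes, and Fabp9, a form of testis, gave -0.17 and 0.037 on arrays 2 and 3.

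Probes of a gene could be compared for 11 genes that had at least 2 probes with a ratio on all arrays. The gap between the highest and lowest probe mean had a median of 0.20 and ranged from 0.12 for Ebp to 1.48 for Lpin1, and it was over 1 for Lpin1, Dgat2 and Acadl. In Lpin1, probe 11985 averaged 3.24 and the others 1.75 and 1.95. Dgat2 probes 12715 and 1994 averaged 4.77 and 3.38, or 27.3-fold and 10.4-fold. In Acadl, probe 12528 averaged 2.05, while 4 probes annotated to 1 other clone averaged 0.83 to 1.34. Among the probes with a ratio on all arrays, the sign of the mean was shared within each of the 11 genes; the Pex3 probe measured on array 2 alone had the opposite sign.

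**Figure D4:**
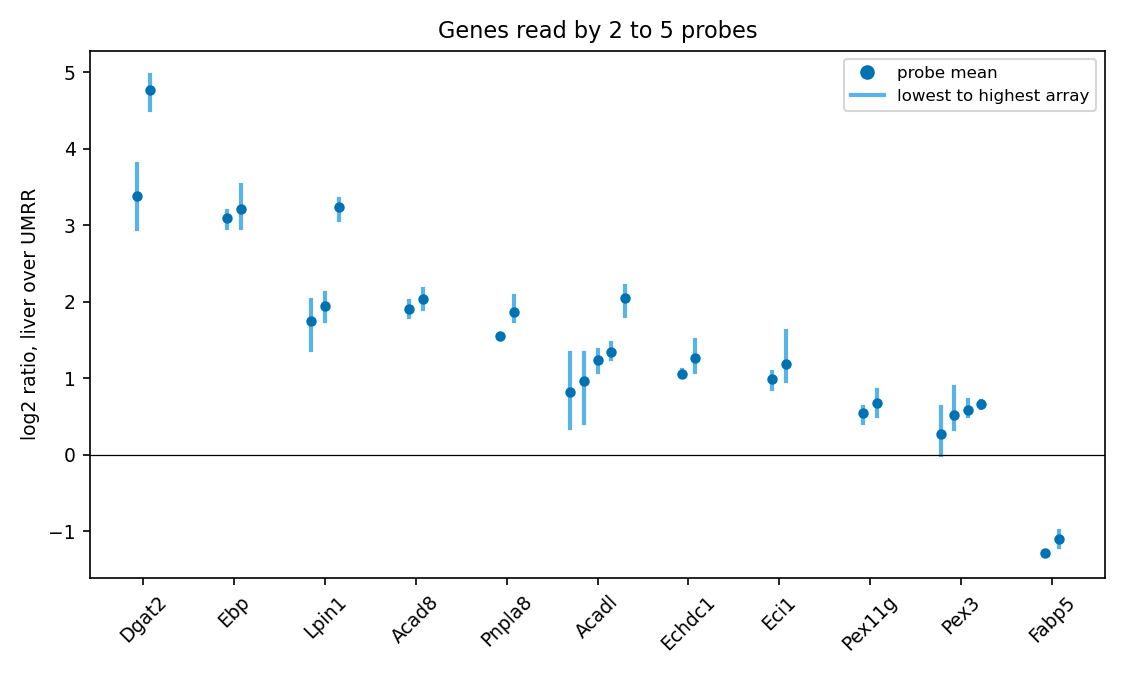
Log2 ratio of liver over UMRR (vertical axis) of each probe in the 11 genes read by 2 to 5 probes on all arrays; points are probe means over 3 arrays, and bars run from the lowest to the highest array. Probes of Lpin1, Dgat2 and Acadl lie over 1 log2 unit apart, whereas those of Ebp, Acad8 and Pex11g lie close together.

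Array by array, the medians of the 31 genes were 1.33, 1.27 and 1.34 on arrays 1, 2 and 3, against -0.043, -0.028 and -0.0066 over all genes fitted. Array 1 gave the lowest value for 15 of the 31 genes and the highest for 12. The largest difference between array 1 and array 2 was 0.98, for Acadvl, and the largest between arrays 2 and 3 was 0.91, for Acads. Of the 31 genes 30 kept 1 sign on all arrays (79.5% of all genes did), and the exception was Mvk. Without array 1, 26 genes were higher in liver and 3 lower, of 32 then tested (32.5% and 37.3% of all genes were).

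**Figure D5:**
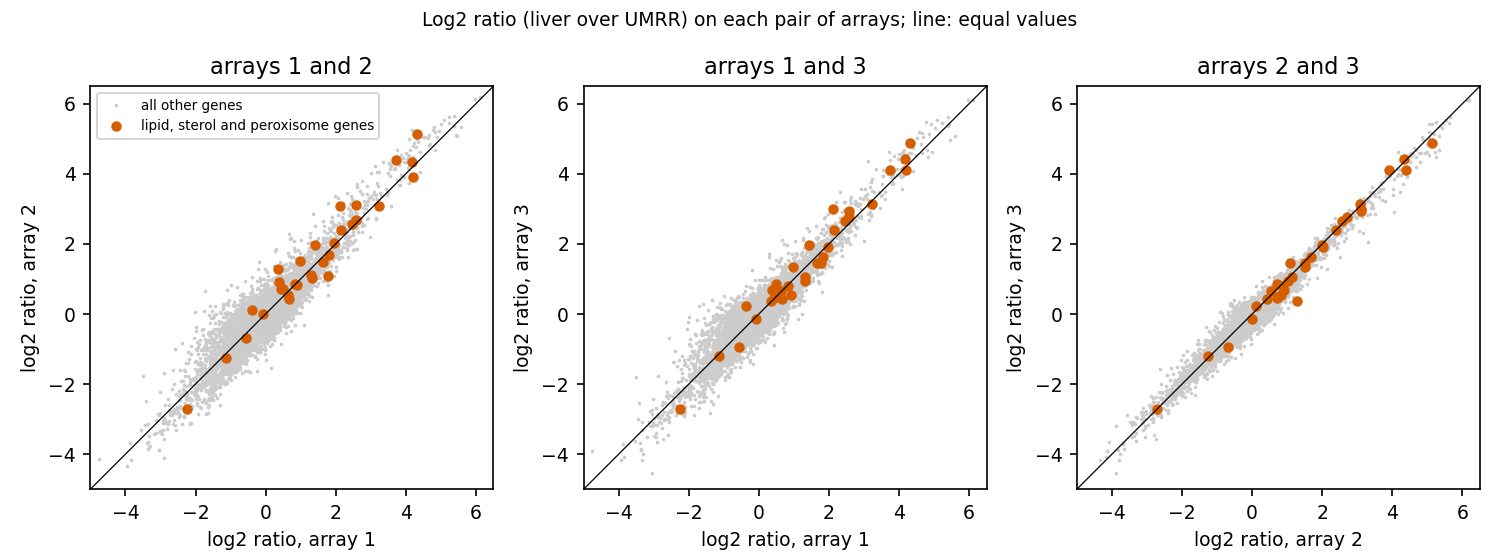
Log2 ratios of liver over UMRR on each pair of arrays (both axes), with the 31 measured lipid, sterol and peroxisome genes in orange and the other genes in grey; the line marks equal values. The orange points scatter most for arrays 1 and 2 (SD of the difference 0.41) and least for arrays 2 and 3 (0.22).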

How the data were processed

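The deposited values, 1 for each probe on each array, were read as log2 ratios after whatever processing the authors applied. Neither the log base nor the scanner, background correction or dye normalization is stated in the sources used here. Read as natural logs, every log2 value would grow by a factor of 1.44. Per the labels, Cy5 marked liver and Cy3 marked UMRR. Scanner intensities were not used here, so dim probes could not be filtered. Exact zeros made up 32.2%, 23.5% and 29.6% of arrays 1, 2 and 3 and were taken as missing.

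Each array had 16273 probes. Probes with 1 symbol and a ratio on all 3 arrays were averaged per gene (5520 genes), and limma 3.58.1 (R 4.3.3) fitted an intercept to all of them (lmFit, then eBayes). Tests were two-sided at an adjusted p of 0.05 (Benjamini-Hochberg). The number of arrays limits the precision. All member names matched RefSeq identifiers (GRCm38.p6), and no symbol changed.

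Members and lists were chosen with earlier results of these data known. The rule for named genes was to give per-array values for the 2 highest and 2 lowest genes of each role, and for Fabp1 and Bdh1. Outside the families it took the 2 highest and 2 lowest called genes of each list. Scp2 probes were singled out after their values were seen. In 20 simulations of 5520 genes with 200 changed, the fit recovered 91.1% of log2 changes of 1 and 26.0% of those of 0.5. Of the simulated calls, 5.32% were wrong. The fit to the arrays passed 64.0%, a far larger share than was simulated. The p-value needed to pass depends on that share, so these recovery rates cannot be carried over to the results above. Alternatives covered centring, scaling, each array left out, zeros kept, 2 arrays required, probe summary, noisy probes, moderation, a 2-fold null and the log base.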

Additional observations from a re-analysis of the deposited data

How the results depend on the processing

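Of 401 pairs of a measured gene and an alternative, 371 had the same call and 30 lost the call. None changed direction past the test. The 371 include all 31 pairs read as natural logs, which only rescales every ratio and so could not change a call. Also among the 371 are the pairs of Mvk and Fabp1, which passed in no fit. The mean of Mvk ran from -0.13 to 0.18 over the alternatives, so its direction was not kept. The call of 15 of the 31 genes was the same under every alternative in which the gene was tested. Mvk and Fabp1 are among the 15 and had no call to lose. The count of genes higher in liver was 14 and of genes lower was 1 in the test against a 2-fold difference. Of all genes, 7.72% were higher and 7.07% lower in that test, whose null is stricter by construction. There 14 genes of the set lost their call. With exact zeros kept, 8 genes lost their call, and the median over all genes of the set was 0.66. Without moderation of the variance 7 lost theirs: Acad9, Pex19, Fads1, Acads, Pex5l, Pex3 and Scd3. That median was 1.24 with the median probe per gene, 1.40 without probes of high SD (which removed 2 genes, Acads and Acadvl) and 1.85 when read as natural logs. With each array left out in turn it lay between 1.18 and 1.35, with 25 to 28 genes higher in liver, 3 to 4 lower and 18 to 21 apart by 2-fold or more, in 1 direction, on each array used. In these fits 22.9% to 32.5% of all genes were higher and 26.5% to 37.3% lower. The cause of these shifts in the median and the counts was not tested. No paired analysis was possible because the arrays form 1 group.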

Other observations

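Exact zeros were not spread evenly over the arrays. Of the 73 probes of the set, 18 (24.7%) had an exact 0 on array 1, 11 (15.1%) on array 2 and 22 (30.1%) on array 3, against 32.2%, 23.5% and 29.6% of all 16273 probes. For the 6 genes with a ratio on 1 array, that array was array 2 in 5 cases (Acaa2, Acot7, Acsl3, Elovl1 and Pex13) and array 1 in the case of Agpat3.

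Repeat probes of 1 clone differed by array. In Acadl, probes 272 and 303 gave 0.35 and 0.41 on array 1, while probes 1832 and 1863 of the same clone gave 1.08 and 1.26 there. On array 2 these 4 probes lay between 1.33 and 1.46.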
